A study of Mus musculus with 6 samples.

Results

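The 10 genes described here encode proteins stored in the granules of neutrophils, and they were measured here in B cell isolates. Most are known chiefly from cells of the neutrophil lineage, while Mmp9 and Camp can also be made by other leukocytes, B cells among them. They were chosen by name and placed here in granule classes, a grouping that was not checked against protein data. The primary (azurophil) class held Mpo, Elane, Prtn3 and Ctsg, the secondary (specific) class Ltf, Ngp, Camp and Lcn2, and the tertiary (gelatinase) class Mmp8 and Mmp9. All 10 were among the 19935 genes measured, each by 1 probe set, which is the group of array probes that reads a transcript. The choice was made with the difference between the genotypes in these same arrays already known, so the values below are a description of that difference and not an independent test of it.

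The samples were CD37KO, splenic isolates of 3 mice lacking the tetraspanin gene Cd37 in the whole animal, and WT, isolates of 3 wild-type littermates. All 6 mice were C57BL/6J, untreated, and labelled as 3 months of age, while the methods give an older range for animals whose spleens were taken. The RNA of each mouse was hybridised to 1 Affymetrix mouse gene array. After haemolysis and density separation of splenocytes, cells that bound CD43 beads were removed. B220, the B cell form of CD45, was stained to judge purity and not to sort, and isolates short of full purity were accepted. CD43 is carried by neutrophils and T cells, so the selection acts against both, and fewer neutrophils in an isolate and less granule mRNA per neutrophil cannot be told apart in bulk RNA.

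Granule genes are transcribed in waves as a neutrophil matures in the marrow. Primary granule genes are transcribed in promyelocytes, secondary granule genes in myelocytes and metamyelocytes, and tertiary granule genes later, towards the band stage. The neutrophil that leaves the marrow keeps the proteins of every class and has shut off most of their transcription, the primary class first. The mRNAs of the 3 classes are therefore read in marrow as a scale of maturation stage.

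Expression is given as log2 of the normalised array signal, so a difference of 1 is a doubling. As a background level served 5.77, below which lay the mean levels of 95% of 1015 olfactory receptor genes, a family that splenocytes are not known to use. Levels of different genes are not set against each other, because each probe set has its own response. The 6 arrays correlated at 0.9928 to 0.997 over all genes, and CD37KO 2 correlated less with CD37KO 1 and 3 (0.9935 each) than with the 3 WT arrays (0.9953 to 0.9966). Cd37 read 8.15, 8.17 and 8.17 in CD37KO isolates, against 11.99, 11.82 and 12.08 in WT isolates, a difference of -3.80 (SE 0.08, adjusted p = 1.37e-07, limma). Of 10 B cell markers 9 were measured, and all 9 were above background in all 6 arrays with list means of 11.55, 11.58 and 11.62 in CD37KO and 11.56, 11.63 and 11.65 in WT.

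All 10 granule genes had a higher mean in CD37KO than in WT isolates, where 41.8% of all genes did. The differences ran from 0.14 for Prtn3 to 2.07 for Ngp, with a median of 0.58, against -0.019 over all genes. By limma, 0 of the 10 were called at an adjusted p under 0.05 (their adjusted p ran from 0.258 to 0.801), where 0.0251% of all genes were called higher, 0.0301% lower and 0.0552% in either direction. At an unadjusted p under 0.05 limma gave 8 of the 10 as higher and 0 as lower, where 2.96% of all genes were higher and 2.99% lower. Ordinary least squares likewise called 0 of the 10 after adjustment, and gave 3 at an unadjusted p under 0.05. In 4 of the 10 (Ctsg, Ltf, Ngp and Lcn2) every CD37KO array lay above every WT array, where 4.33% of all genes did, and in 0 of the 10 every CD37KO array lay below, where 7.57% did. Among all 19935 genes ranked by difference, Ngp stood at 2, Lcn2 at 3 and Ltf at 7, and only 10 genes differed by 1 or more upwards. The genotype comparison rests on 3 mice a side, for which an exact permutation test of 1 gene cannot give a two-sided p below 0.1.

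**Figure D1:**
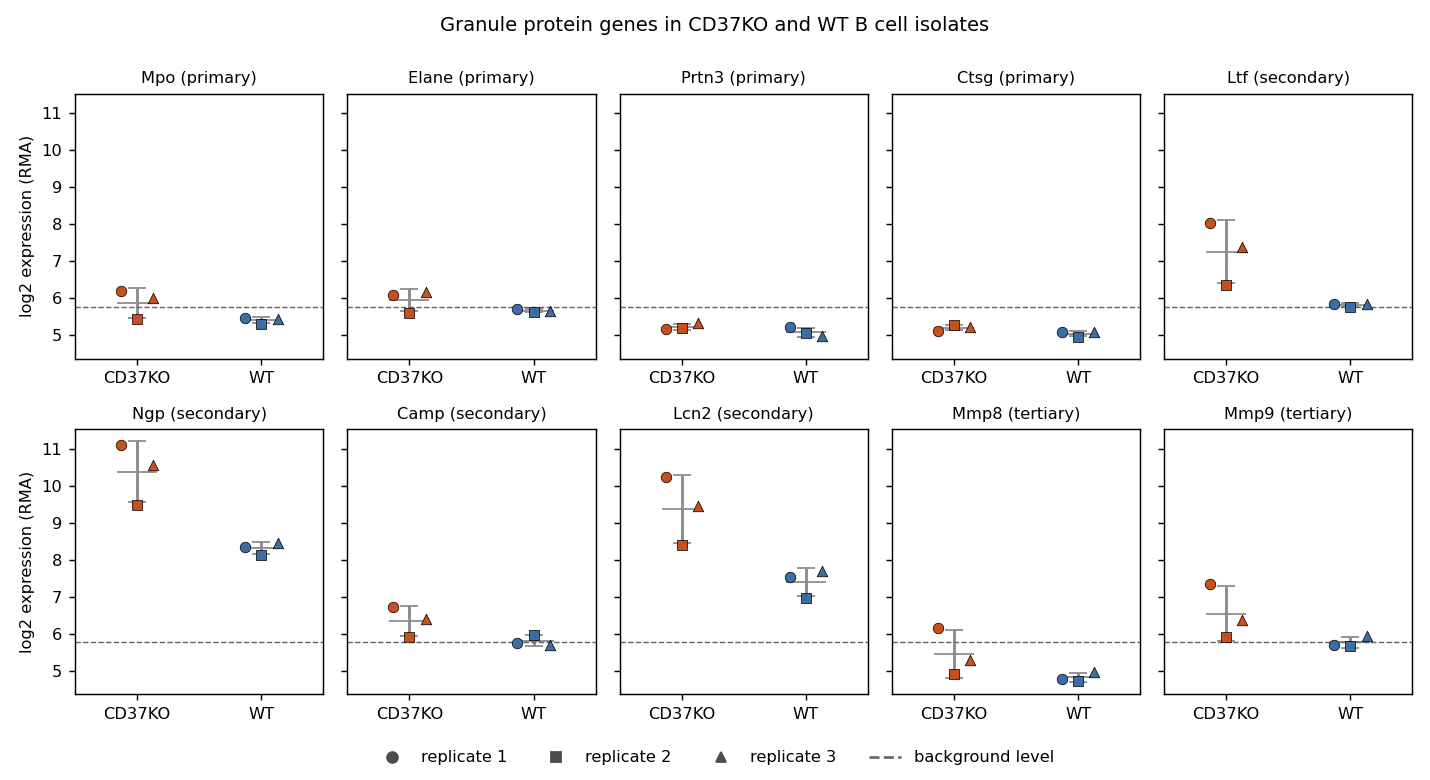
Log2 expression of the 10 granule protein genes in each array (y axis), with CD37KO left and WT right in each panel, 1 marker shape per replicate number, grey bars for the mean ± SD (n = 3) and a dashed line at the background level of 5.77. Ngp, Lcn2 and Ltf have all CD37KO points above all WT points, while in Mpo, Elane, Camp, Mmp8 and Mmp9 CD37KO replicate 2 lies at or below the highest WT point.

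The primary class is led by Mpo, myeloperoxidase, which makes hypochlorous acid, and by 3 serine proteases of 1 family, Elane (neutrophil elastase), Prtn3 (proteinase 3) and Ctsg (cathepsin G). Elane and Prtn3 are neighbours on chromosome 10 with 0 measured genes between them. The 250 bases before the start of each gene are shown because the 4 share a short element there that the secondary genes lacked. Capitals mark the PU.1 core AGGAAGT on either strand. In Ctsg alone they also mark the RUNX core, for which the letters TGTGGT were searched on both strands. Sequences are from RefSeq, build GRCm38.p6, written 5′ to 3′ on the gene's strand.
Mpo: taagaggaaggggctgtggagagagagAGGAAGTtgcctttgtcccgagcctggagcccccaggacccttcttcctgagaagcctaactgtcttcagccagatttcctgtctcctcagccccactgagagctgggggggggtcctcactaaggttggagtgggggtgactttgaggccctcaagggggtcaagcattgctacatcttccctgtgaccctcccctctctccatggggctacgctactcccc
Elane: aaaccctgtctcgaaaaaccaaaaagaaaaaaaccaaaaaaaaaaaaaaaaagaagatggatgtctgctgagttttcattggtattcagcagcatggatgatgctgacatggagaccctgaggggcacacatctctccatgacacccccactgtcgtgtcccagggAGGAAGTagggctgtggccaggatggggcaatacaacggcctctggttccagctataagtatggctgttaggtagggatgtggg
Prtn3: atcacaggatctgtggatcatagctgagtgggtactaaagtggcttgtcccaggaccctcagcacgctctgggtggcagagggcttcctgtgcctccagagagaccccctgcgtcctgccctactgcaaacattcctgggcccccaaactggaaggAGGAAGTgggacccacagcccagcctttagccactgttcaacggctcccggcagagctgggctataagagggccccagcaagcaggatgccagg
Ctsg: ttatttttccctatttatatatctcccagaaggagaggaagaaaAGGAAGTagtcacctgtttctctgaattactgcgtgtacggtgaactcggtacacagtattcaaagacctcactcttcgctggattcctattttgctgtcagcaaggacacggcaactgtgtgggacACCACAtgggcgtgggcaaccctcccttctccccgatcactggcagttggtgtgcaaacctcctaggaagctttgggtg
The windows are Mpo chr11:87793534-87793783 (plus strand), Elane chr10:79886062-79886311 (plus strand), Prtn3 chr10:79879417-79879666 (plus strand) and Ctsg chr14:56102575-56102824 (minus strand).
The PU.1 core was found in 4 of 4 primary windows, 0 of 4 secondary windows and in that of Mmp8, where 7.69% of all 32851 windows of this length held it. The RUNX core was found in 14.0% of all windows. A match is a run of letters and not a measured binding site.

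Mpo read 6.20, 5.43 and 6.02 in CD37KO isolates 1, 2 and 3, against 5.47, 5.32 and 5.45 in WT isolates 1, 2 and 3. CD37KO 1 and 3 were the only arrays above background, and CD37KO 2 lay within the WT range. The difference was 0.47 (SE 0.17, 95% interval 0.07 to 0.87, adjusted p = 0.801, limma). Since no WT array was above background, no fold over WT is given. The CD37KO mean lay 1.09-fold above the background level, with CD37KO 2 below that level. Elane had the same division of mice, at 6.08, 5.61 and 6.16 in CD37KO against 5.70, 5.63 and 5.67 in WT, with CD37KO 2 lowest of all 6. Its difference was 0.28 (SE 0.13, 95% interval -0.02 to 0.58). Its CD37KO mean lay 1.13-fold above the background level, again with CD37KO 2 below that level.

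Prtn3 and Ctsg were not above background in any array. Ctsg read 5.13, 5.28 and 5.22 in CD37KO and 5.10, 4.96 and 5.08 in WT, which did not overlap but were only 0.03 apart at the nearest pair. Prtn3 read 5.16, 5.19 and 5.33 in CD37KO and 5.22, 5.07 and 4.98 in WT, which overlapped. No fold is given for either, since values below background have only a bound. The median difference of the class was 0.22, and 2 of its 4 genes had an unadjusted p under 0.05.

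The secondary class held the 3 largest differences of the 10 genes. Ngp encodes a cathelin-like protein of mouse neutrophil granules, Lcn2 encodes lipocalin 2, which withholds iron from bacteria by binding their siderophores, Ltf encodes lactoferrin, an iron-binding protein, and Camp encodes the cathelicidin peptide precursor. Ltf, Ngp and Camp lie close together on chromosome 9, with 9 measured genes between Camp and Ngp and 20 between Ngp and Ltf. The windows of the 3 genes that differed most are shown because they shared the C/EBP core TTNNGCAA (TTGCNNAA on the other strand), which capitals mark.
Ltf: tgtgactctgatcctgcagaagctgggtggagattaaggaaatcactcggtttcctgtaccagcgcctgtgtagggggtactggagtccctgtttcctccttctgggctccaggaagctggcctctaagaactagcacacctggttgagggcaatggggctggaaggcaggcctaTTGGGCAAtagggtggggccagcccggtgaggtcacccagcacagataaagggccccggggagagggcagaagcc
Ngp: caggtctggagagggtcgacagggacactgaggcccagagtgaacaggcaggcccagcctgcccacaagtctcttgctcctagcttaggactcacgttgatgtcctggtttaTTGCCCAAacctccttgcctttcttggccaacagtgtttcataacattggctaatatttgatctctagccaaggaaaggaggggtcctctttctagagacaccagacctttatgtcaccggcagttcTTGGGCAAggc
Lcn2: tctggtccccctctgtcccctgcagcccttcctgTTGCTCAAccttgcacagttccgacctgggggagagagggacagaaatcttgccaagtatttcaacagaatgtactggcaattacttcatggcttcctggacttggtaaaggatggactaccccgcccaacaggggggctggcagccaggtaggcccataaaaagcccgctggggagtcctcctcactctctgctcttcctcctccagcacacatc
The windows are Ltf chr9:111019042-111019291 (plus strand), Ngp chr9:110419558-110419807 (plus strand) and Lcn2 chr2:32387740-32387989 (minus strand).
The C/EBP core was found in 3 of 4 secondary windows, in 0 of 4 primary windows and in that of Mmp8, where 9.56% of all windows held it. Ngp held 2 matches, and the window of Camp held none of the 4 motifs searched. The AP-1 core TGANTCA was in no window of the 9 genes that had one, against 6.75% of all windows, and Mmp9 was not matched to a window.

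Ngp read 11.09, 9.48 and 10.56 in CD37KO isolates 1, 2 and 3, against 8.34, 8.13 and 8.46 in WT isolates 1, 2 and 3. The lowest CD37KO array lay 1.02 above the highest WT array, the widest gap of the 10 genes. Ngp averaged 10.38 ± 0.82 in CD37KO and 8.31 ± 0.17 in WT (SD, n = 3 each), a difference of 2.07 (SE 0.34, 95% interval 1.29 to 2.85, adjusted p = 0.258, limma) or 4.19-fold. By mouse, the level over the WT mean was 6.89-fold in CD37KO 1, 2.25-fold in CD37KO 2 and 4.76-fold in CD37KO 3.

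Lcn2 behaved alike, at 10.24, 8.40 and 9.46 in CD37KO, against 7.53, 6.97 and 7.70 in WT. The groups lay 0.70 apart and differed by 1.97 (SE 0.40, 95% interval 1.04 to 2.89, adjusted p = 0.578, limma), or 3.91-fold. In the 3 CD37KO mice in turn Lcn2 was 7.15-fold, 2.00-fold and 4.17-fold over the WT mean, which is the order seen for Ngp. Ltf read 8.04, 6.35 and 7.39 in CD37KO, against 5.86, 5.78 and 5.86 in WT, so that WT isolates sat just above background and CD37KO isolates were clear of it. Its difference was 1.42 (SE 0.35, 95% interval 0.63 to 2.22, adjusted p = 0.801, limma), or 2.68-fold.

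Camp was the exception of the class. It read 6.73, 5.91 and 6.40 in CD37KO and 5.76, 5.98 and 5.70 in WT, so CD37KO 2 lay below WT 2 and the groups overlapped. The difference was 0.53 (SE 0.19, 95% interval 0.11 to 0.96), or 1.45-fold with 1 of 3 WT arrays above background. All 4 genes of the class were higher at an unadjusted p under 0.05 in limma, where 2.96% of all genes were. Their differences ran from 0.53 to 2.07, and the median was 1.69. Leaving out CD37KO 2 brought adjusted p in limma to 0.00329 for Ngp, 0.015 for Ltf and 0.0376 for Lcn2, with differences of 2.52, 1.88 and 2.45. CD37KO 2 was the lowest CD37KO array in all 4 genes, so its removal raises the differences by construction. Weighting arrays by their fit brought Ngp alone to 0.0165. No other alternative brought a gene of the class under 0.05. For Ngp, adjusted p was 0.379 in limma without CD37KO 1 and 0.832 by ordinary least squares.

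The tertiary class as grouped here holds only 2 genes, the matrix metalloproteinases Mmp8 (neutrophil collagenase) and Mmp9 (gelatinase B). Mmp9 read 7.35, 5.91 and 6.37 in CD37KO, against 5.70, 5.68 and 5.94 in WT, with CD37KO 2 just under WT 3. The difference was 0.77 (SE 0.31, 95% interval 0.07 to 1.47, adjusted p = 0.801, limma), or 1.71-fold with 1 of 3 WT arrays above background. Mmp8 read 6.16, 4.91 and 5.30 in CD37KO and 4.79, 4.72 and 4.96 in WT, and only CD37KO 1 was above background. Its difference was 0.63 (SE 0.27, 95% interval 0.02 to 1.24), for which no fold is given. Without CD37KO 1 the class median was 0.33, against 0.70 with it, and the secondary median was 1.28, against 1.69. Of the 9 windows searched, that of Mmp8 alone held both the C/EBP and the PU.1 core.

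Set side by side, the median differences were 0.22 for primary, 1.69 for secondary and 0.70 for tertiary granule genes. The lowest secondary difference, 0.53 for Camp, lay above those of Elane, Ctsg and Prtn3 and beside that of Mpo at 0.47, and below those of the tertiary genes Mmp8 and Mmp9 at 0.63 and 0.77. The difference between classes was not tested, since the genes were chosen with these values known. In CD37KO arrays 1, 2 and 3 the count of genes above background was 2, 0 and 2 of 4 in the primary class, 4, 4 and 4 of 4 in the secondary class, and 2, 1 and 1 of 2 in the tertiary class. In the 3 WT arrays it was 0, 0 and 0, then 3, 4 and 3, then 0, 0 and 1. The authors' normalisation compresses the scale at low signal. The WT means of the 4 primary genes and Mmp8 were below background and those of Ltf, Camp and Mmp9 at or just above it, so the size of these differences may be understated, by an amount that cannot be had from these values.

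**Figure D2:**
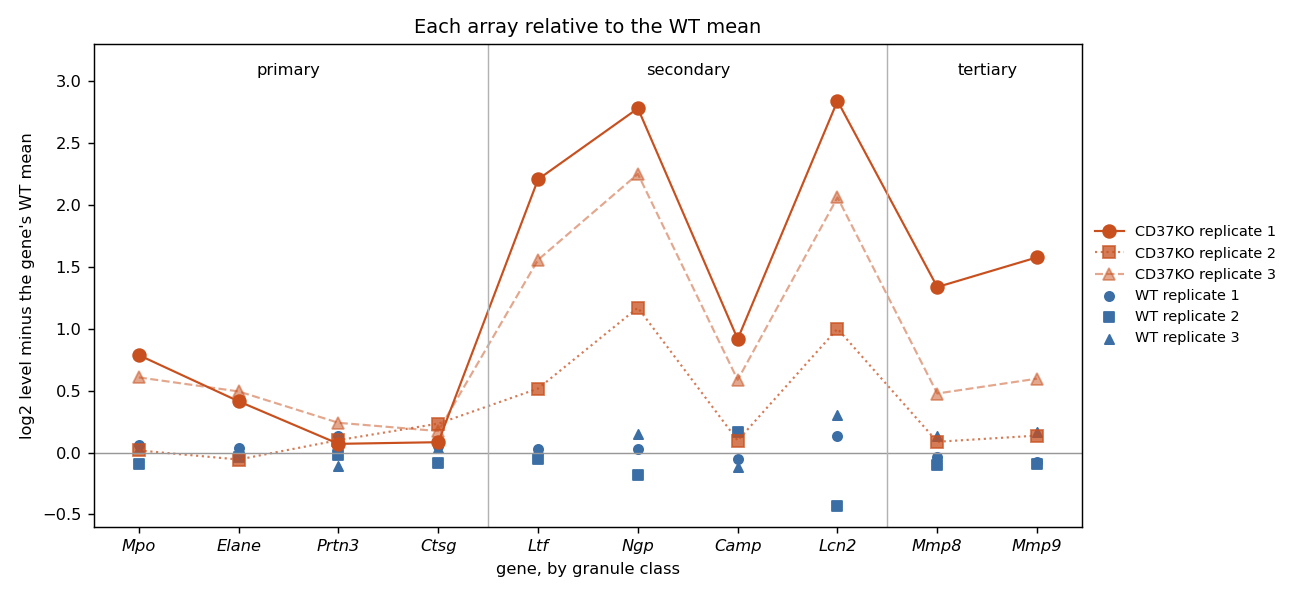
Log2 level of each granule gene in each array minus that gene's WT mean (y axis), with genes ordered by granule class on the x axis, CD37KO arrays joined by lines and WT arrays as points. The secondary genes Ngp and Lcn2 reach 2.78 and 2.84 in CD37KO replicate 1 and stay at 1.17 and 1.00 in replicate 2, where the primary and tertiary genes lie at or near the WT mean.

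In most of the 10 granule genes the 3 CD37KO arrays differed from each other more than the 3 WT arrays did. The spread from lowest to highest array was wider in CD37KO than in WT for 9 of the 10 genes, where this held for 50.9% of all genes. In the secondary class CD37KO arrays spanned 0.83 to 1.84 and WT arrays 0.08 to 0.73, and in the tertiary class 1.24 to 1.44 and 0.23 to 0.26. All but Ngp and Lcn2 had WT means below or near background, where the normalisation compresses the scale, which may narrow the WT spread. For Ngp and Lcn2 the spread was 1.62 and 1.84 in CD37KO, against 0.33 and 0.73 in WT. All 6 secondary and tertiary genes ran in the order CD37KO 1, CD37KO 3, CD37KO 2 from high to low, an order that 16.2% of all genes had. These genes come from the same 3 extracts, so the shared order is 1 observation of 3 mice and not 6.

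Of the primary genes that were above background in any array, Mpo had this order and Elane had CD37KO 3 highest. Prtn3 and Ctsg were below background in every array, so the order of their arrays was not read, and Mmp8 was above it in CD37KO 1 alone. Mpo and Elane were nearly level in CD37KO 1 and CD37KO 3, which differed by 0.19 and -0.08, whereas Mmp8 and Mmp9 were higher in CD37KO 1 by 0.86 and 0.98 and Ltf, Ngp, Camp and Lcn2 by 0.65, 0.53, 0.34 and 0.78. The class means over the WT mean put this in 3 profiles. CD37KO 1 stood at 0.34 for primary, 2.19 for secondary and 1.46 for tertiary genes. CD37KO 3 stood at 0.38, 1.61 and 0.54 for these classes. CD37KO 2 stood at 0.07, 0.69 and 0.11, against WT arrays from -0.12 to 0.09 in the secondary class. Gene by gene, CD37KO 2 lay above every WT array in Ltf, Ngp, Lcn2 and Ctsg, and Ctsg was below background there, while Camp lay within the WT range. Secondary exceeded primary genes by 1.85, 0.62 and 1.24 in CD37KO arrays 1, 2 and 3, against -0.04, -0.07 and 0.10 in WT arrays 1, 2 and 3. The WT values centre on 0 because each class is set against its WT mean. The primary mean includes Prtn3 and Ctsg, which were below background, and this widens the contrast. In CD37KO 1, 2 and 3, Mpo alone stood at 0.79, 0.02 and 0.61 over its WT mean and Elane at 0.41, -0.05 and 0.49.

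**Figure D3:**
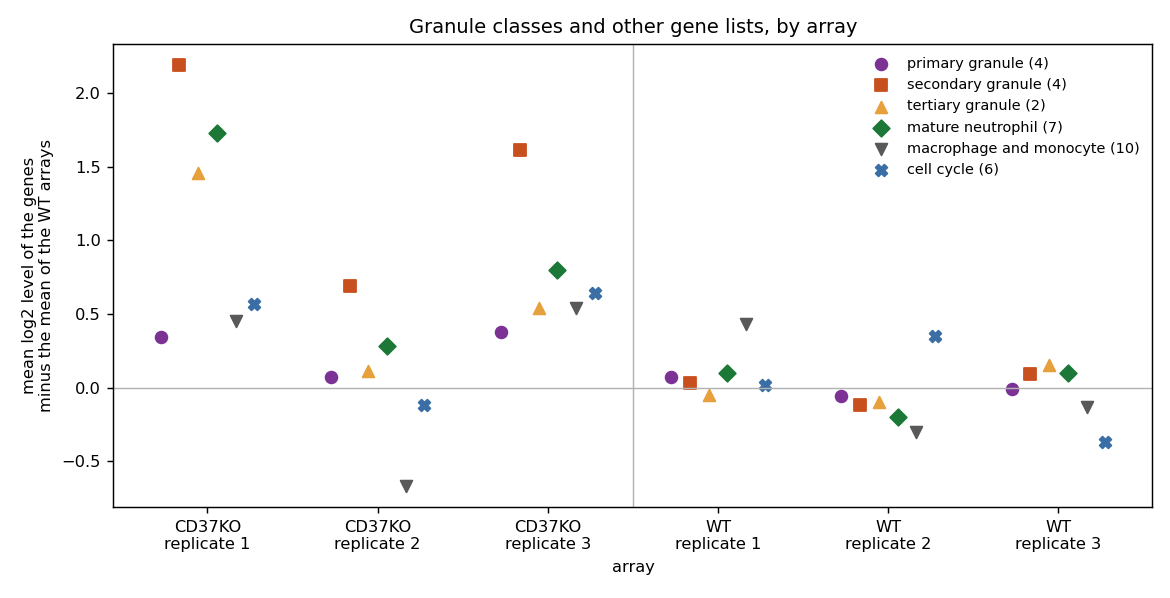
Mean log2 level of the genes of each granule class and of other gene lists in each array minus the mean of the WT arrays (y axis), with the 3 CD37KO arrays left of the 3 WT arrays on the x axis. Secondary granule genes stand at 2.19, 0.69 and 1.61 in CD37KO replicates 1, 2 and 3 and within -0.12 to 0.09 in WT. Mature neutrophil genes stand at 1.73, 0.28 and 0.80 in the same CD37KO replicates.

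Other neutrophil genes followed the secondary and tertiary classes. S100a8 and S100a9, which encode the calprotectin subunits of neutrophil cytosol, differed by 1.62 (SE 0.37) and 1.50 (SE 0.40), and Retnlg, a resistin-like gene of mature neutrophils, by 1.07 (SE 0.41), each with adjusted p = 0.801 in limma. S100a8 read 9.18, 7.44 and 8.19 in CD37KO, against 6.80, 6.29 and 6.85 in WT, again with CD37KO 1 highest and CD37KO 2 lowest of the CD37KO arrays. Of 7 mature neutrophil genes measured, 0 passed the adjusted test, and the median difference was 0.86. In limma 5 of the 7 were higher at an unadjusted p under 0.05, where 2.96% of all genes were. The mean of the 7 genes over the WT mean was 1.73, 0.28 and 0.80 in CD37KO 1, 2 and 3, against 0.10, -0.20 and 0.10 in WT.

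Genes for other granule components gave the following counts. Of 10 genes for other secondary and tertiary granule components, 0 passed the adjusted test in limma, with a median difference of 0.37. At an unadjusted p under 0.05 limma gave 5 of the 10 as higher and 0 as lower, where 2.96% of all genes were higher. Pglyrp1, a peptidoglycan-binding protein, read 8.94, 8.48 and 8.57 in CD37KO and 8.29, 8.04 and 8.42 in WT, a difference of 0.41 (SE 0.14). Chil3, a chitinase-like protein, differed by 0.64 (SE 0.23) and was above background in CD37KO 1 alone, at 6.11. Olfm4, olfactomedin 4, was below background in every array and differed by -0.01. Of 6 genes for primary granule components, 0 passed, 0 had an unadjusted p under 0.05 in either direction, and the median was -0.04. Of these 6, 2 were below background in every array. Prss57, a serine protease of the primary granule, was below background at 4.94, 4.99 and 5.06 in CD37KO and 4.98, 5.01 and 5.01 in WT. Ctsc, which activates the granule serine proteases, and Srgn, the proteoglycan that packs them, are used by many leukocytes, were above background in all 6 arrays and differed by 0.09 (SE 0.13) and -0.03 (SE 0.17). The difference between the lists of partners was not tested.

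Of the genes of earlier stages, 3 of 7 transcription factors and 2 of 4 progenitor genes were below background in every array. A small difference in these says little about maturation stage. Cebpe, the C/EBP factor of secondary granule transcription, was below background in every array, at 5.22, 5.27 and 5.22 in CD37KO and 5.11, 5.12 and 5.25 in WT. Cebpa, the C/EBP factor of early granulocyte commitment, differed by 0.04 and was also below background. Of 7 transcription factors of granulopoiesis 0 passed the adjusted test in limma. At an unadjusted p under 0.05 only Gfi1, a repressor also used by lymphocytes, was lower, by -0.15 (SE 0.06), where 2.99% of all genes were lower. The progenitor genes Kit, Cd34 and Flt3 differed by -0.08, -0.09 and 0.03. Cd34 was below background throughout, and Kit was above it in WT 3 alone, at 5.88. For the partners of granule proteins, the lipocalin receptor gene Slc22a17 differed by -0.03 and the metalloproteinase inhibitor genes Timp1 and Timp2 by -0.02 and 0.22 (SE 0.43 for Timp2). Timp1 was below background in every array. Epx, Prg2 and Mcpt8, granule genes of eosinophils and basophils, were below background in all arrays and differed by -0.01, -0.03 and -0.13.

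**Figure D4:**
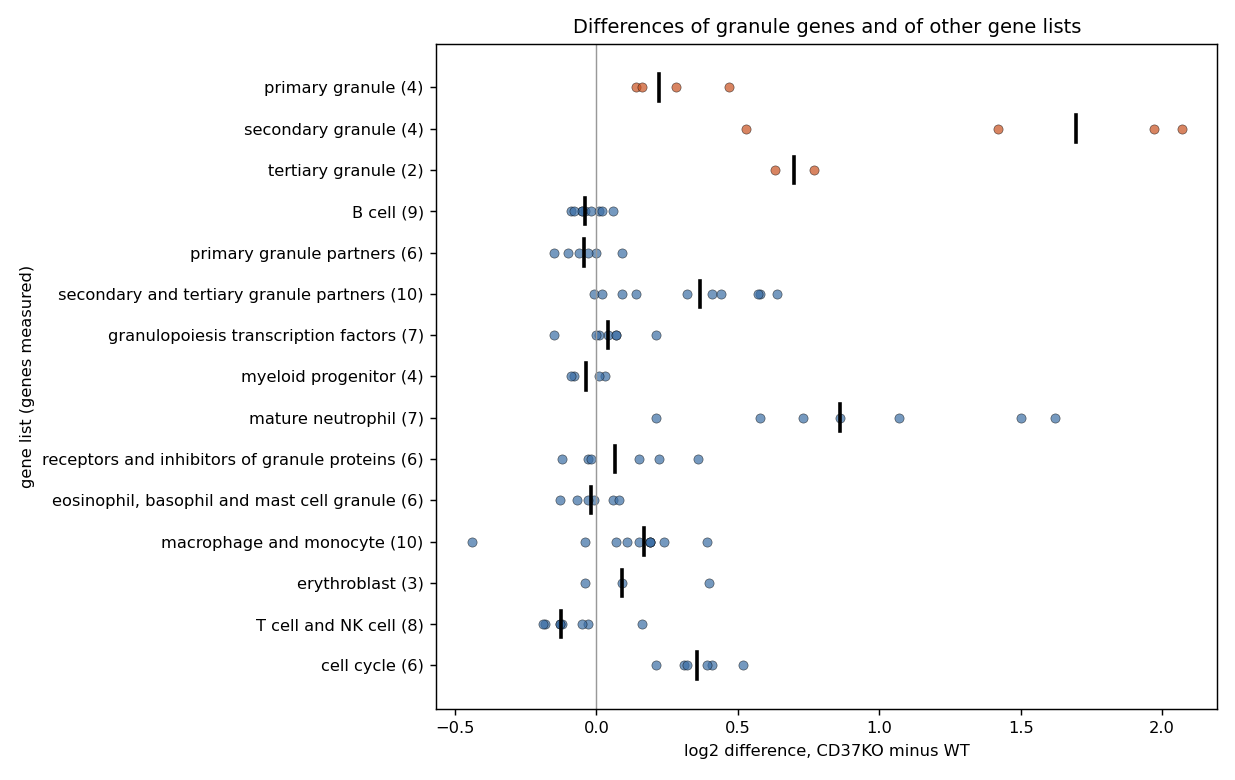
Log2 difference of each gene, CD37KO minus WT (x axis), for the 3 granule classes and 12 other gene lists (y axis, with the number of genes measured), where the black bars are medians. The secondary granule genes span 0.53 to 2.07, the primary 0.14 to 0.47 and the tertiary 0.63 to 0.77. The mature neutrophil genes span 0.21 to 1.62. The secondary and tertiary granule partners span -0.01 to 0.64 and the primary granule partners -0.15 to 0.09.

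Markers of other cells also varied among the mice. The mean of 10 macrophage and monocyte genes was 9.22, 8.10 and 9.31 in CD37KO isolates 1, 2 and 3, against 9.20, 8.48 and 8.64 in WT isolates 1, 2 and 3. Of the CD37KO arrays, CD37KO 2 was lowest in this mean, as it was in Ngp at 11.09, 9.48 and 10.56. Of the WT arrays, WT 1 was highest in this mean, and Ngp read 8.34, 8.13 and 8.46 in WT. Adgre1, a macrophage adhesion receptor, differed by 0.39 (SE 0.34), Cd68, a lysosomal glycoprotein, by 0.19 (SE 0.30) and Csf1r, the M-CSF receptor, by 0.07 (SE 0.37). The mean of 6 cell cycle genes was 7.71, 7.01 and 7.77 in CD37KO, against 7.15, 7.49 and 6.77 in WT, lowest in WT 3 and CD37KO 2. The proliferation genes Mki67, Top2a and Cdk1 differed by 0.41 (SE 0.33), 0.52 (SE 0.25) and 0.31. T cell and NK cell genes had means of 5.64, 5.67 and 5.58 in CD37KO and 5.72, 5.61 and 5.81 in WT. Cd3d, Cd3e and Cd3g differed by -0.03, -0.13 and -0.18, and Cd3d and Cd3g were below background in every array. The erythroid genes Alas2, Slc4a1 and Klf1 differed by 0.09, 0.40 and -0.04, with Klf1 below background in every array. The B cell genes Cd79a, Cd79b and Ms4a1 differed by 0.06, -0.04 and -0.09. The part of these cells in the granule gene differences was not tested.

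Among the 257 genes outside the 10 whose values spanned at least 1 on the log2 scale, those most like the mean of the secondary class over the 6 arrays were Ifitm6 (Pearson r = 0.994), S100a9 (0.992), S100a8 (0.987), Ly6g (0.971), Il10 (0.961) and Selenon (0.960). Without CD37KO 1 and 3 the likeness over the other 4 arrays was 0.955, 0.970, 0.948, 0.955, 0.464 and 0.919 in the same sequence, lowest for Il10. In these 4 arrays the secondary mean over the WT mean was 0.69 in CD37KO 2, against -0.12 to 0.09 in WT. The likeness over them therefore rests largely on CD37KO 2, and it cannot show likeness apart from the difference between the genotypes. Most like the primary class mean were Selenon (0.970), Cxcl10 (0.966), Adgrl2 (0.964), Ms4a7 (0.955), Ifitm6 (0.954) and Snord118 (0.947), with 0.914, 0.715, 0.936, 0.893, 0.868 and 0.611 over the other 4 arrays. Ifitm6 and Selenon stood in both lists, with differences of 0.80 (SE 0.17) and 0.70 (SE 0.13). The primary mean includes Prtn3 and Ctsg, which were below background, and the required span was set on these same arrays, so genes high in CD37KO arrays were more easily taken in. Whether the lists differ was not tested.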

How the data were processed

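Splenic B cell RNA of 3 CD37KO and 3 WT mice was hybridised to 1 array each. Each probe set has a log2 value deposited by the authors. RMA (background correction, normalisation between arrays, probe summary) and the build mm8 come from the submitters' processing notes, and for the software's version the sources used here give nothing. No raw scan was used. Of 35361 probe sets, 21780 name 1 gene, 1605 several and 11976 none. Those with 1 gene were used, names were updated by Entrez ID from the GRCm38.p6 gene table (91 IDs not found), and the brightest probe set per gene was kept, without a filter on dim genes.

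CD37KO was compared with WT in limma 3.58.1 under R 4.3.3 with moderated variances. Its two-sided p-values were adjusted over 19935 genes after Benjamini and Hochberg, with a threshold of 0.05, and the code was tested on simulated data. The 10 genes, the gene lists and the motifs were chosen with earlier results of these data known. Named were all 10 genes, Cd37, the first 3 measured genes of each other list, any list gene passing the adjusted test, and the 6 genes most like the primary and the secondary class. Motifs were searched on both strands of the 250 bases before each start. Mice were separate animals, and the number of arrays limits the precision. Alternatives covered scaling, probe set choice, filter, variance model, array weights, a replicate block, background percentile and each array left out.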

Additional observations from a re-analysis of the deposited data

How the results depend on the processing

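The direction of all 10 genes was the same under every alternative run. Differences of single genes kept their side of the threshold in 131 cases and passed it in 4, namely Ngp under array weights and Ngp, Ltf and Lcn2 without CD37KO 2. Over the alternatives, adjusted p ran from 0.00329 to 1.0 for Ngp, 0.015 to 1.0 for Ltf and 0.0376 to 1.0 for Lcn2. The number of granule genes called was 0, 1 under array weights, and 0 to 3 with 1 array left out. The number of genes called in all was 11, but 3 by ordinary least squares, 19 with array weights and 4 to 14 with 1 array left out. Granule genes with every CD37KO array above every WT array numbered 4, and 4 to 9 with 1 array left out, where 9 were found without CD37KO 2 beside 12.4% of all genes. The number of granule genes above background in every array of a genotype was 5 in CD37KO and 3 in WT, but 6 in CD37KO and 6 in WT with the 90th percentile as background, and 2 in CD37KO and 2 in WT with the 99th. Class medians with 1 array left out were 0.17 to 0.30 for primary, 1.28 to 2.16 for secondary and 0.33 to 1.00 for tertiary genes. Deviations of same-numbered mice of the genotypes correlated at 0.238, 0.00678 and -0.139, against -0.367 to 0.312 for the other pairs. These gave no sign that the numbers pair the mice, but with 3 mice a side they cannot settle it. The fit with the replicate number as a block called 4 genes, none of the 10. The cause of these changes was not tested. With 6 arrays, genes near background carry little that can be measured, which limits the primary class and Mmp8 most.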
